A study of Mus musculus with 6 samples.

Results

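The data describe 10 human genes that guard cell membranes against ferroptosis: GPX4, the factors that supply it with selenocysteine, and suppressors that act beside it. They were found by symbol among the 39234 genes of the deposited count table, and all 10 passed the filter on low counts. The table covers 6 libraries of HK-2 cells (immortalized human proximal tubule epithelium): 3 controls and 3 with overexpression of USAG-1, a secreted antagonist of BMP and Wnt signalling encoded by SOSTDC1. All 6 carry the genotype label WT, and the labels give neither treatment, time nor what the control cells received. The paper's methods state that overexpression in cells was by transient plasmid transfection, so each library can average over transfected and untransfected cells. Mouse is the organism on the labels, but HK-2 and the Ensembl identifiers of the table are human. Whether the replicates were separate cultures is not stated, so the p-values below measure the spread between these libraries, which may be technical.

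Ferroptosis is a form of cell death in which iron drives the peroxidation of membrane lipids. GPX4 reduces lipid hydroperoxides to alcohols with glutathione, and its active site holds selenocysteine, the amino acid inserted at a recoded UGA codon. Selenocysteine is built on its own transfer RNA: SEPHS2 makes selenophosphate, PSTK phosphorylates the seryl transfer RNA, SEPSECS converts it to selenocysteyl transfer RNA, SECISBP2 binds the SECIS element of selenoprotein messages, and EEFSEC delivers the charged transfer RNA to the ribosome. LRP8 takes up selenoprotein P, the plasma carrier of selenium. Independently of GPX4, AIFM2 (also called FSP1) and DHODH reduce coenzyme Q at the plasma membrane and in mitochondria, and GCH1 starts the synthesis of the antioxidant tetrahydrobiopterin. Proximal tubule cells are among the cells in which loss of GPX4 is known to be lethal.

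SOSTDC1 itself rose from 79, 80 and 60 counts in the control libraries to 5072, 3907 and 4438 counts with USAG-1 overexpression (log2 fold change 5.94, edgeR's quasi-likelihood test, adjusted p = 6.96e-07). Libraries held 41236194 to 48699471 counts on genes. Control replicate 3 stood apart on the second principal component of log2 CPM (-54.3, against 28.2 and 25.2 for the other controls). Values without it are given in the text for some genes. The figures show them for the 10 genes and for most genes of the further lists. Of 9 T cell markers, 9 were lower with USAG-1 overexpression, and their summed level was 66.7 to 79.4 CPM in control and 7.60 to 10.3 CPM in overexpressing libraries. None of the 9 was at 0 in all overexpressing libraries. The summed level of 5 myeloid markers was also lower, at 34.7 to 48.3 CPM in control and 21.9 to 27.1 CPM in overexpressing libraries. Of these 5, 1 passed the threshold, beside 15.9% of all genes tested. This was LYZ, with a mean of 27.6 CPM in control and 16.6 CPM in overexpressing libraries (adjusted p = 0.0439, edgeR). In CD14, CSF1R, FCGR3A and AIF1 the groups overlapped. The sums of B cell, endothelial and fibroblast markers overlapped between the groups. Mitochondrially encoded genes took 5.29 ± 0.426% of counts in control and 1.53 ± 0.0255% in overexpressing libraries (SD, n = 3 each). Across all genes tested, the log2 fold change had a Spearman correlation of 0.20 with log10 genomic span (n = 18188 genes, which are not independent and share the same libraries). The part of these differences in the results below was not tested, apart from the offset for genomic span and the library sizes without mitochondrial genes. Of 15 renal epithelial markers, 9 had a mean above 1 CPM in each group, KRT8, KRT18, PAX8 and GGT1 among them. Of the 10 renal epithelial markers tested, 3 passed the threshold as higher with overexpression and 0 as lower, beside 15.9% of all genes tested. PAX8 (log2 fold change 0.26, adjusted p = 0.0114, edgeR) and GGT1 (0.55, adjusted p = 0.0208, edgeR) were among the 3. The proximal tubule endocytic receptor LRP2 had no count in any library, CDH1, PAX2, CUBN and AQP1 were too low to test, and the phosphate transporter SLC34A1 was at 0.310 CPM in control and 0.518 CPM in overexpressing libraries.

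One of the 10 genes was differentially expressed: AIFM2 rose about 1.5-fold in USAG-1-overexpressing cells. GPX4 did not pass the test, and its fold change was close to 1 once control replicate 3 was left out. SECISBP2, EEFSEC and PSTK were lower in all 3 overexpressing libraries than in all 3 controls, without passing the adjusted threshold. At an adjusted p under 0.05, 1 of 10 genes was called (edgeR's quasi-likelihood test, Benjamini-Hochberg adjustment over 18188 genes), beside 15.9% of all genes tested (8.95% higher and 6.91% lower). Leaving out control replicate 3 raised the number to 3 of 10, with SECISBP2 and LRP8 added, beside 27.0% of all genes tested. In 5 of the 10 genes the libraries of both groups were fully separate, as they were in 37.6% of all genes tested. With 10 genes, neither count is read as a departure from these shares. Their median log2 fold change was -0.15 (4 above and 6 below 0), and -0.02 over all genes tested. In bulk RNA such as this, fewer cells of a kind and less RNA per cell cannot be told apart.

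**Figure D1:**
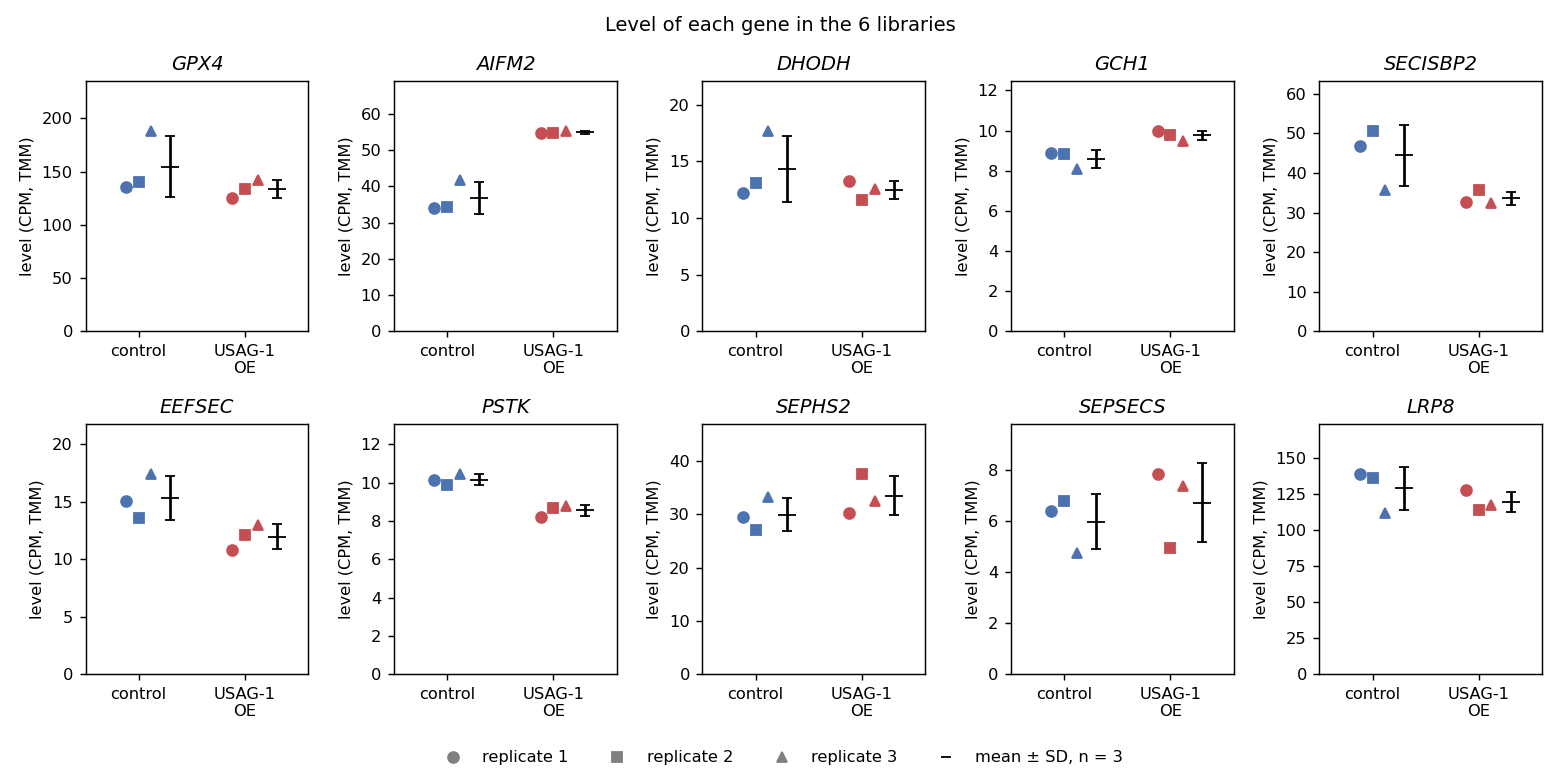
Level of each of the 10 genes (CPM, on the TMM scale, axis from 0) in the 3 control libraries (blue) and the 3 libraries with USAG-1 overexpression (red). Marker shapes give the replicate number, and the black bar is the mean ± SD (n = 3). AIFM2 lies at 54.7 to 55.3 CPM in the overexpressing libraries, above all 3 controls, whereas for GPX4 control replicate 3 lies above the other 5 libraries.

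Levels are given in CPM, counts relative to the TMM-scaled size of each library, and positions as in the deposited table (hg38). GPX4 (ENSG00000167468; chromosome 19, 1103994 to 1106779, plus strand) had 136, 141 and 188 CPM in the control libraries and 125, 134 and 142 CPM with USAG-1 overexpression. The groups overlapped, with control replicate 3 the highest of the 6 libraries and overexpression replicate 1 the lowest. The means were 155 ± 29.0 and 134 ± 8.11 CPM (SD, n = 3 each). The log2 fold change was -0.21 (standard error 0.12, 95% interval -0.49 to 0.07, adjusted p = 0.289, edgeR's quasi-likelihood test). Without control replicate 3 it was -0.04 (standard error 0.06, adjusted p = 0.636, edgeR), and with an offset for genomic span it was -0.09. The interval leaves room for a level of GPX4 mRNA that is lower by 0.49 or higher by 0.07 on the log2 scale, so a p above the threshold does not show an equal level. Gene counts sum over the cytosolic, mitochondrial and nuclear forms of GPX4, which start from different sites and were not separated here.

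Over the 6 libraries, the genes with a mean of at least 5 CPM whose log2 CPM followed that of GPX4 most closely were PRMT1 (Pearson r = 0.998), AP1S1 (0.996) and CHCHD2 (0.995), out of 11100 ranked. Each shared GPX4's shape, with control replicate 3 highest: PRMT1 had 246, 258 and 341 CPM in controls and 235, 246 and 261 CPM with overexpression. The 6 points share control replicate 3, and the correlations are a description only. Among the other 9 genes, r with GPX4 was highest for DHODH (0.886) and EEFSEC (0.851) and lowest for GCH1 (-0.87).

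AIFM2 (ENSG00000042286; chromosome 10, 70098223 to 70132934, minus strand) encodes an NAD(P)H-dependent reductase of coenzyme Q and vitamin K that is anchored to membranes by a myristoyl group. It had 34.1, 34.4 and 41.9 CPM in the control libraries and 54.7, 54.7 and 55.3 CPM with USAG-1 overexpression. The groups did not overlap, and the 3 overexpressing libraries were nearly level. The means were 36.8 ± 4.44 and 54.9 ± 0.341 CPM (SD, n = 3 each), a 1.49-fold rise. The log2 fold change was 0.58 (standard error 0.09, 95% interval 0.38 to 0.78, adjusted p = 0.00457, edgeR's quasi-likelihood test). It stayed past the threshold under all 16 alternatives, from 0.53 without control replicate 1 to 0.69 without control replicate 3, with a largest adjusted p of 0.0309 (without USAG-1 overexpression replicate 2).

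AIFM2 overlaps MACROH2A2, a histone variant gene on the other strand, over 14060 bp. The libraries were strand-specific, but whether reads were counted by strand is not given in the sources used here. MACROH2A2 had 47.7 ± 4.45 CPM in control and 42.8 ± 0.851 CPM in overexpressing libraries (SD, n = 3 each), and its log2 fold change of -0.16 was in the direction opposite to AIFM2 (adjusted p = 0.225, edgeR).

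DHODH (ENSG00000102967; chromosome 16, 72008588 to 72027664, plus strand) is the enzyme of pyrimidine synthesis that sits in the inner mitochondrial membrane and passes electrons to coenzyme Q. Its level was 12.2, 13.1 and 17.7 CPM in the control libraries and 13.2, 11.6 and 12.6 CPM in the overexpressing ones. The groups overlapped, and control replicate 3 was again the highest. Its log2 fold change was -0.20 (standard error 0.15, 95% interval -0.54 to 0.14, adjusted p = 0.417, edgeR), and -0.02 without control replicate 3.

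GCH1 (ENSG00000131979; chromosome 14, 54842008 to 54902826, minus strand), GTP cyclohydrolase and the rate-limiting enzyme of tetrahydrobiopterin synthesis, had 8.89, 8.84 and 8.07 CPM in controls and 9.98, 9.80 and 9.50 CPM with USAG-1 overexpression. All 3 overexpressing libraries were above all 3 controls. The difference was small, with a log2 fold change of 0.18 (standard error 0.11, 95% interval -0.07 to 0.43), and did not pass the test (adjusted p = 0.299, edgeR).

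**Figure D2:**
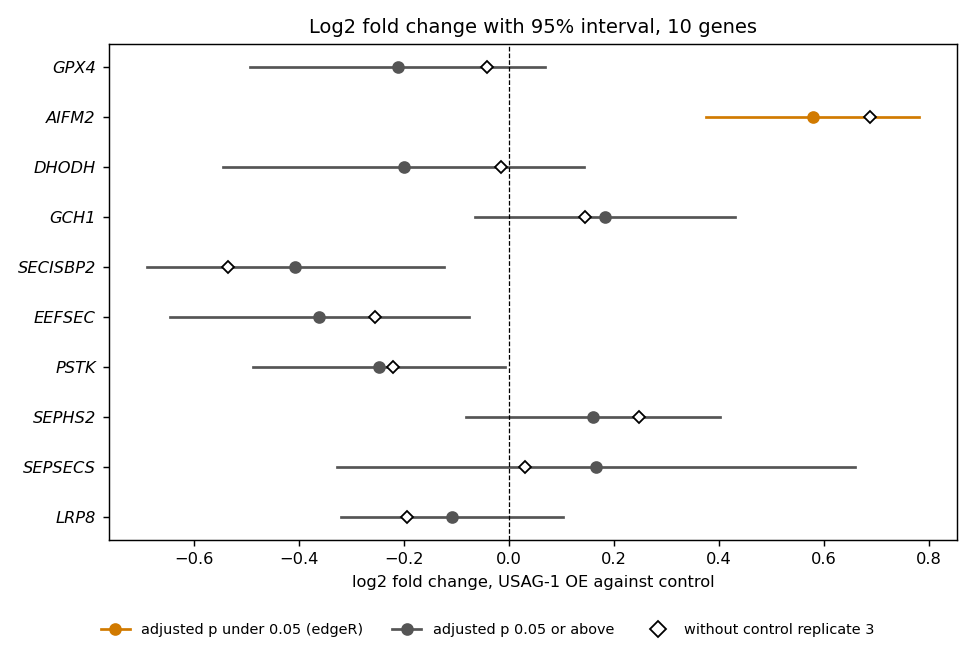
Log2 fold change of the 10 genes, USAG-1 overexpression against control (circles), with the 95% interval of edgeR's quasi-likelihood fit as a line. Orange marks an adjusted p under 0.05, grey any other, and open diamonds the value without control replicate 3. AIFM2 at 0.58 is the single orange gene, and the diamonds of GPX4 (-0.04) and DHODH (-0.02) lie next to 0.

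SECISBP2 (ENSG00000187742; chromosome 9, 89318500 to 89359663, plus strand), the protein that recognizes selenoprotein messages, had 46.9, 50.6 and 35.8 CPM in the control libraries and 32.8, 35.6 and 32.3 CPM with overexpression. The groups were separate, but control replicate 3 lay next to overexpression replicate 2. The log2 fold change was -0.41 (standard error 0.12, 95% interval -0.69 to -0.12, unadjusted p = 0.0104, adjusted p = 0.0597, edgeR). Without control replicate 3 it was -0.53 (adjusted p = 0.000382, edgeR). SECISBP2 was past the threshold in 6 of 16 alternatives: without control replicate 3, with DESeq2 (adjusted p = 0.0132), with at least 10 counts in every library, with a replicate block, and with the offset for genomic span, alone or with the block.

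EEFSEC (ENSG00000132394; chromosome 3, 128153481 to 128408646, plus strand), the elongation factor for selenocysteine, had 15.0, 13.6 and 17.4 CPM in controls and 10.8, 12.1 and 13.0 CPM with overexpression. Every overexpressing library was below every control. On the log2 scale the difference was -0.36 (standard error 0.12, 95% interval -0.65 to -0.08, adjusted p = 0.0877, edgeR), and -0.26 without control replicate 3 (adjusted p = 0.139, edgeR). It spans 255166 bp, the longest of the 10 genes, and with an offset for genomic span its log2 fold change was -0.49 (adjusted p = 0.0519, edgeR). With the replicate block added to this offset it passed the threshold, at -0.48 (adjusted p = 0.0461, edgeR).

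PSTK (ENSG00000179988; chromosome 10, 122954381 to 122994929, plus strand), the kinase of seryl transfer RNA, had 10.2, 9.87 and 10.4 CPM in controls and 8.23, 8.68 and 8.76 CPM with overexpression. Its control libraries were the tightest of the 10 genes, with a coefficient of variation of 2.79%, and control replicate 3 was close to the others. The log2 fold change was -0.25 (standard error 0.10, 95% interval -0.49 to -0.01, adjusted p = 0.153, edgeR), which did not pass the test under any of the 16 alternatives. PSTK overlaps IKZF5 on the other strand over 4123 bp. IKZF5 changed by 0.12 on the log2 scale, without passing the test (adjusted p = 0.412, edgeR).

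For the other enzymes of selenocysteine synthesis the estimates were above 0, and neither passed the test. SEPHS2 (ENSG00000179918; chromosome 16, 30443631 to 30445874, minus strand), itself a selenoprotein, had 29.5, 27.2 and 33.2 CPM in controls and 30.3, 37.5 and 32.6 CPM with overexpression, or 0.16 on the log2 scale (95% interval -0.08 to 0.40, adjusted p = 0.349, edgeR). For SEPHS2 it was 0.25 without control replicate 3 and 0.07 without overexpression replicate 2, neither past the threshold. SEPSECS (ENSG00000109618; chromosome 4, 25120014 to 25160546, minus strand) had 6.40, 6.79 and 4.74 CPM in controls and 7.82, 4.95 and 7.35 CPM with overexpression. Overexpression replicate 2 was the highest library for SEPHS2 and the lowest of its group for SEPSECS. For SEPSECS the log2 fold change was 0.17 with a wide interval, -0.33 to 0.66 (adjusted p = 0.655, edgeR). It was 0.03 without control replicate 3, 0.04 without overexpression replicate 1, 0.10 without overexpression replicate 3 and 0.35 without overexpression replicate 2, and passed the test in none of these fits. The groups overlapped in both genes.

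LRP8 (ENSG00000157193; chromosome 1, 53242364 to 53328070, minus strand), the receptor for selenoprotein P, had 139, 136 and 112 CPM in control libraries and 127, 114 and 117 CPM with overexpression. The groups overlapped through control replicate 3, the lowest of the 6 libraries. On the log2 scale this was -0.11 (standard error 0.09, 95% interval -0.32 to 0.10, adjusted p = 0.480, edgeR). Without control replicate 3 it was -0.19, and passed the threshold (adjusted p = 0.0223, edgeR). The other receptor for selenoprotein P in kidney, LRP2, had 0 counts in 6 of 6 libraries, which allows a level of up to 0.0608 to 0.0719 CPM by counting error alone. SELENOP, which encodes the carrier itself, had 6 counts in control replicate 1 and 0 in the other 5 libraries.

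Control replicate 3 lay at an end of the control range in all 10 genes, highest in 6 (GPX4, AIFM2, DHODH, EEFSEC, PSTK, SEPHS2) and lowest in 4 (GCH1, SECISBP2, SEPSECS, LRP8). The matching share over all genes tested is not given, so this is not read as a trait of the 10 genes. Against the mean of the other controls, the level in control replicate 3 differed most in DHODH (0.48 on the log2 scale), SEPSECS (-0.48), SECISBP2 (-0.45) and GPX4 (0.45), and least in PSTK (0.06). The coefficient of variation of GPX4 was 18.7% in control and 6.07% in overexpressing libraries, and that of AIFM2 was 12.1% and 0.620%. For SEPSECS it was 18.2% and 23.0%.

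**Figure D3:**
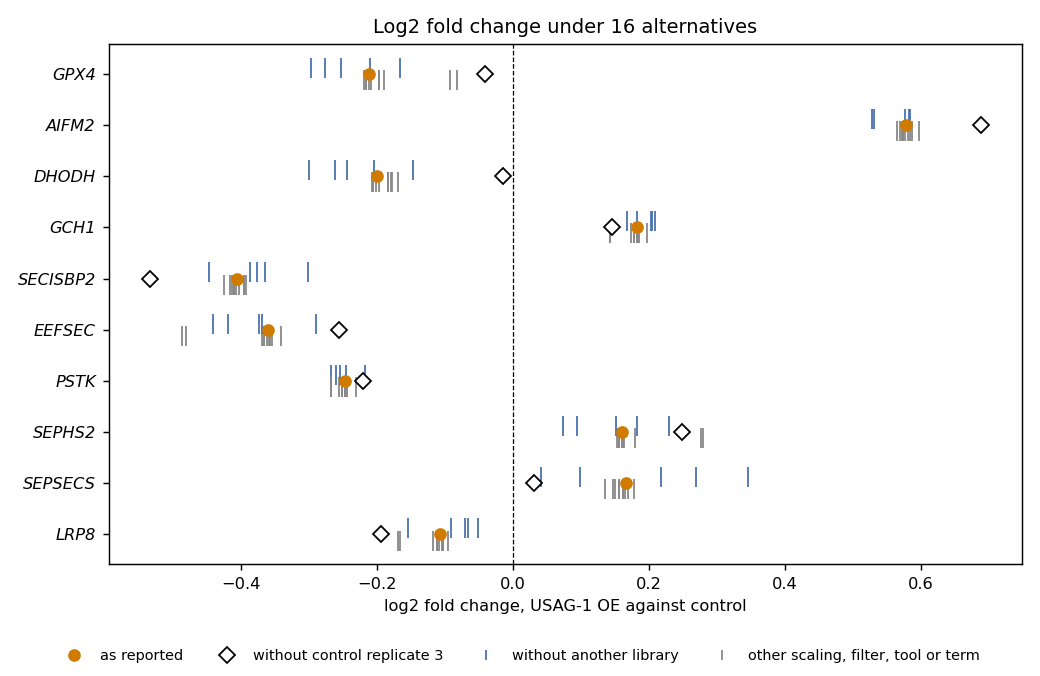
Log2 fold change of the 10 genes, USAG-1 overexpression against control, as reported (orange circles) and under 16 alternatives: without control replicate 3 (open diamonds), without 1 of the other 5 libraries (blue ticks), and with other scalings, filters, tools or terms (grey ticks). All 160 alternative values keep the direction of the reported one, and GPX4 ranges from -0.30 to -0.04.

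Selenoproteins are the products that this machinery serves. Of the 25 human selenoprotein genes on a typed list, 23 were in the table and 18 were tested, GPX4 and SEPHS2 among them. SELENOW, SELENOH and SELENOK fell and SELENON rose, 4 of 18 past the threshold (edgeR), beside 15.9% of all genes tested. The list's median log2 fold change was -0.14, with 14 genes below and 4 above 0, and -0.04 without control replicate 3, when 8 of 19 were past the threshold, beside 27.0% of all genes tested. No gene of the list was past it when any 1 of the other 5 libraries except control replicate 1 was left out, or without the filter on low counts. The estimates kept their direction, with SELENOW at -0.58, -0.63 and -0.69 without overexpression replicate 1, 2 and 3, and over all genes the share called also fell, to 5.98% without overexpression replicate 2.

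SELENOW (ENSG00000178980; chromosome 19, 47778677 to 47784686), a small thioredoxin-like protein, had 15.2, 16.05 and 22.4 CPM in controls and 10.6, 11.5 and 12.4 CPM with overexpression, or -0.64 on the log2 scale (SE, the standard error, 0.16, adjusted p = 0.0298, edgeR). Without control replicate 3 the value for SELENOW was -0.44 (adjusted p = 0.0156, edgeR). SELENOK, a protein of the endoplasmic reticulum membrane, had 15.7, 17.2 and 18.6 CPM in controls and 13.5, 11.6 and 13.1 CPM with overexpression, or -0.43 on the log2 scale (adjusted p = 0.0309, edgeR). SELENOH, a nuclear redox protein, had 28.3, 29.2 and 32.9 CPM in controls and 20.5, 23.6 and 25.2 CPM with overexpression, or -0.38 on the log2 scale (adjusted p = 0.0360, edgeR). In each of these 3 genes every overexpressing library was below every control, with control replicate 3 the farthest from them. SELENOH lies wholly within another annotated gene on the same strand, so reads could be split between them.

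SELENON, an endoplasmic reticulum protein of calcium handling, went the other way, from 104, 111 and 115 CPM to 126, 132 and 131 CPM, or 0.24 on the log2 scale (SE 0.06, adjusted p = 0.0322, edgeR). GPX1, the cytosolic glutathione peroxidase, had 166, 180 and 258 CPM in controls and 145, 149 and 150.0 CPM with overexpression. Its log2 fold change was -0.44 and did not pass the test (adjusted p = 0.0792, edgeR), whereas without control replicate 3 it was -0.22 and did (adjusted p = 0.00632, edgeR). GPX1 has a processed copy, GPX1P1, with a mean of 459 counts, between which reads could be split. TXNRD1, cytosolic thioredoxin reductase, had 596 ± 57.6 CPM in control and 539 ± 5.84 CPM in overexpressing libraries (SD, n = 3 each; log2 fold change -0.14, adjusted p = 0.225, edgeR). Selenoprotein messages as a sum were at 1613 to 1955 CPM in control and 1546 to 1597 CPM in overexpressing libraries, without overlap, the upper end being control replicate 3. The gap between the groups was narrow, and single genes were fully separate in 37.6% of all genes tested. Much of the sum, 1736 CPM on average in control, came from TXNRD1 (596 CPM), GPX1 (202 CPM) and GPX4 (155 CPM). None of these passed the test with all libraries in the fit.

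**Figure D4:**
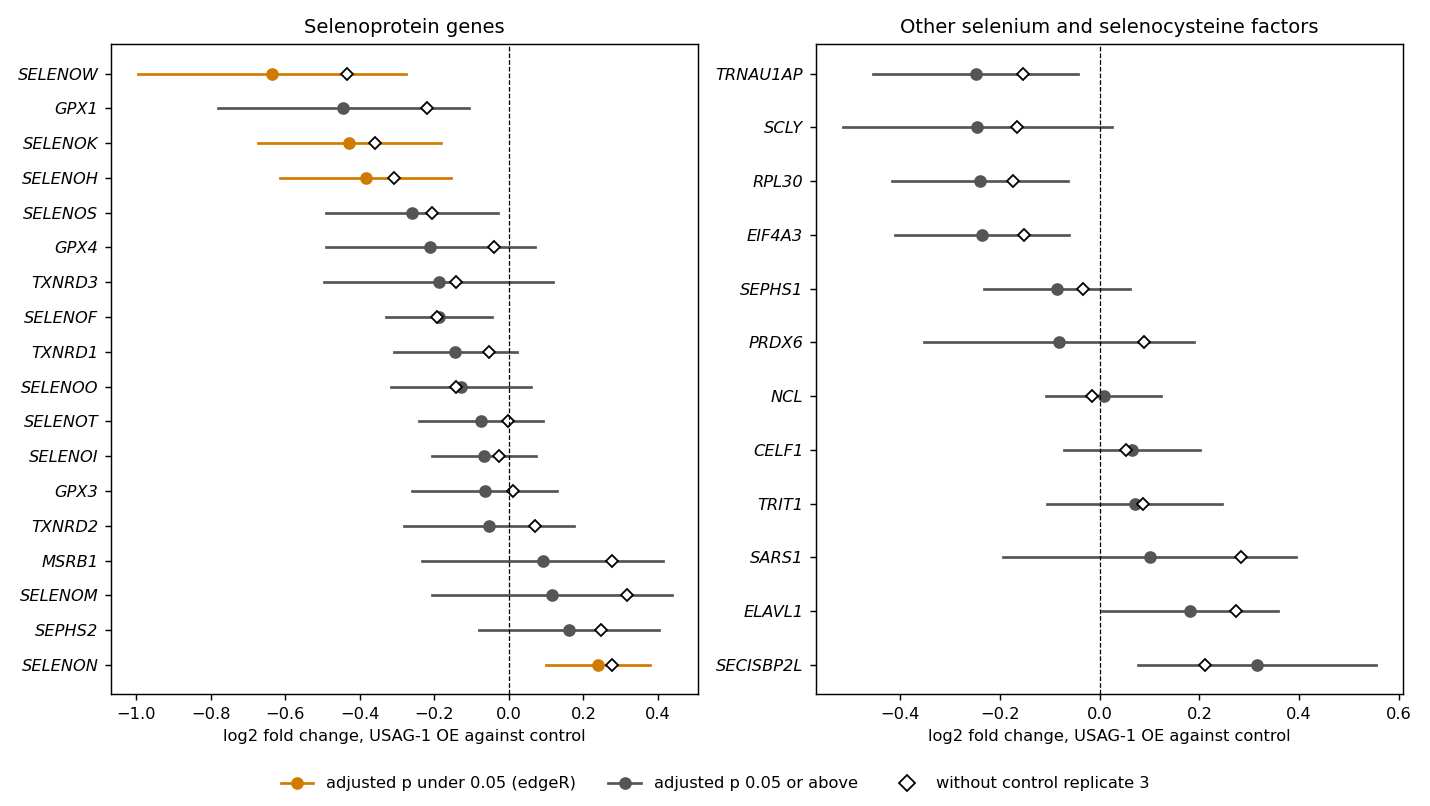
Log2 fold change, USAG-1 overexpression against control, of 18 selenoprotein genes (left) and 12 other selenium and selenocysteine factors (right). Circles with lines are edgeR's estimate and 95% interval (orange for an adjusted p under 0.05), and open diamonds the value without control replicate 3. SELENOW lies lowest at -0.64, and GPX4 (-0.21) lies among the 14 selenoprotein genes below 0.

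Of 13 other factors of selenium handling and selenocysteine insertion, 12 were tested and 0 passed the threshold with edgeR (15.9% of all genes tested did). An unadjusted p under 0.05 was found for 5 of the 12, and for 5552 of all 18188 genes tested. Without control replicate 3 edgeR called 4 of the 12, beside 27.0% of all genes tested. DESeq2 called 3 of the 12 and limma-voom 0. The share over all genes is not given for these tools, so their counts are not read as results about the list. Their median log2 fold change was -0.04, 6 of them lying above and 6 below 0. SECISBP2L, the paralog of SECISBP2, had 31.6, 30.2 and 24.0 CPM in controls and 35.7, 36.5 and 34.6 CPM with overexpression, above all controls, or 0.32 on the log2 scale (95% interval 0.08 to 0.55, adjusted p = 0.0774, edgeR). The paralogs thus had estimates of opposite sign, -0.41 for SECISBP2 and 0.32 for SECISBP2L, and neither passed the threshold. Without control replicate 3 both did, at -0.53 (adjusted p = 0.000382, edgeR) and 0.21 (adjusted p = 0.0239, edgeR). TRNAU1AP, a partner of the selenocysteine transfer RNA, had a log2 fold change of -0.25 (adjusted p = 0.101, edgeR), and SCLY, which frees selenium from selenocysteine, of -0.24 (adjusted p = 0.204, edgeR). The factors with the most counts, NCL and RPL30, bind SECIS elements in vitro and have many other roles. For NCL the log2 fold change was 0.01 (adjusted p = 0.937, edgeR). For RPL30 it was -0.24 (95% interval -0.42 to -0.06, adjusted p = 0.0712, edgeR), and -0.17 without control replicate 3 (adjusted p = 0.0602, edgeR).

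AIFM2 and DHODH both use coenzyme Q. Of 18 genes for the synthesis and transport of coenzyme Q and for the other steps of pyrimidine synthesis, 17 were tested and 5 passed the threshold (edgeR), beside 15.9% of all genes tested. COQ10B and CAD rose, and 3 genes fell, COQ7 and UMPS among them. Their median log2 fold change was -0.10, with 6 above and 11 below 0. The enzymes on either side of DHODH went opposite ways. CAD, which carries out the steps before DHODH, had 210, 206 and 189 CPM in controls and 249, 267 and 259 CPM with overexpression, or 0.36 on the log2 scale (SE 0.06, adjusted p = 0.00722, edgeR) that stayed past the threshold under all 16 alternatives. UMPS, which completes UMP after DHODH, had 69.5, 68.8 and 82.5 CPM in controls and 55.6, 55.3 and 56.0 CPM with overexpression, or -0.40 on the log2 scale (SE 0.08, adjusted p = 0.0130, edgeR).

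COQ7, the hydroxylase of a late step of coenzyme Q synthesis, had 15.6, 15.6 and 15.7 CPM in controls and 11.9, 11.9 and 10.7 CPM with overexpression, or -0.44 on the log2 scale (adjusted p = 0.0161, edgeR). Control replicate 3 did not differ from the other controls in this gene. COQ10B, a coenzyme Q binding protein, rose from 19.1 ± 0.809 to 24.8 ± 0.492 CPM (SD, n = 3 each; log2 fold change 0.38, adjusted p = 0.0127, edgeR). Only CAD of these 5 genes was still past the threshold when overexpression replicate 1, 2 or 3 was left out. In those fits COQ7 was at -0.46 to -0.39, COQ10B at 0.36 to 0.39 and UMPS at -0.41 to -0.40 on the log2 scale, and without overexpression replicate 2 the share called over all genes was 5.98%.

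GCH1 acts at the head of the tetrahydrobiopterin pathway, and 7 other genes of it were tested. Of these 1 passed the threshold, beside 15.9% of all genes tested. This was PTS, the second enzyme, which fell from 15.2, 15.0 and 13.8 CPM to 11.2, 11.9 and 11.6 CPM, or -0.34 on the log2 scale (SE 0.09, adjusted p = 0.0423, edgeR). It lost significance in 10 of 16 alternatives, among them the omission of any 1 library other than control replicate 3. GCHFR, which encodes the feedback protein that inhibits GCH1, had 7.27 ± 1.91 CPM in controls and 4.13 ± 0.895 CPM with overexpression (SD, n = 3 each). Every overexpressing library was below every control, with a log2 fold change of -0.81 (95% interval -1.35 to -0.27) just short of the threshold (adjusted p = 0.0513, edgeR). Without control replicate 3, the highest control, it was -0.57 (adjusted p = 0.0711, edgeR). GCHFR overlaps DNAJC17 on the other strand, and its counts are few. QDPR, which regenerates tetrahydrobiopterin, had a log2 fold change of 0.26 (adjusted p = 0.0730, edgeR), and of 0.36 without control replicate 3, past the threshold (adjusted p = 0.000686, edgeR). The list's median log2 fold change was -0.23, with 5 of 7 genes below 0, and -0.10 without control replicate 3, when 4 of 7 passed the threshold, beside 27.0% of all genes tested.

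**Figure D5:**
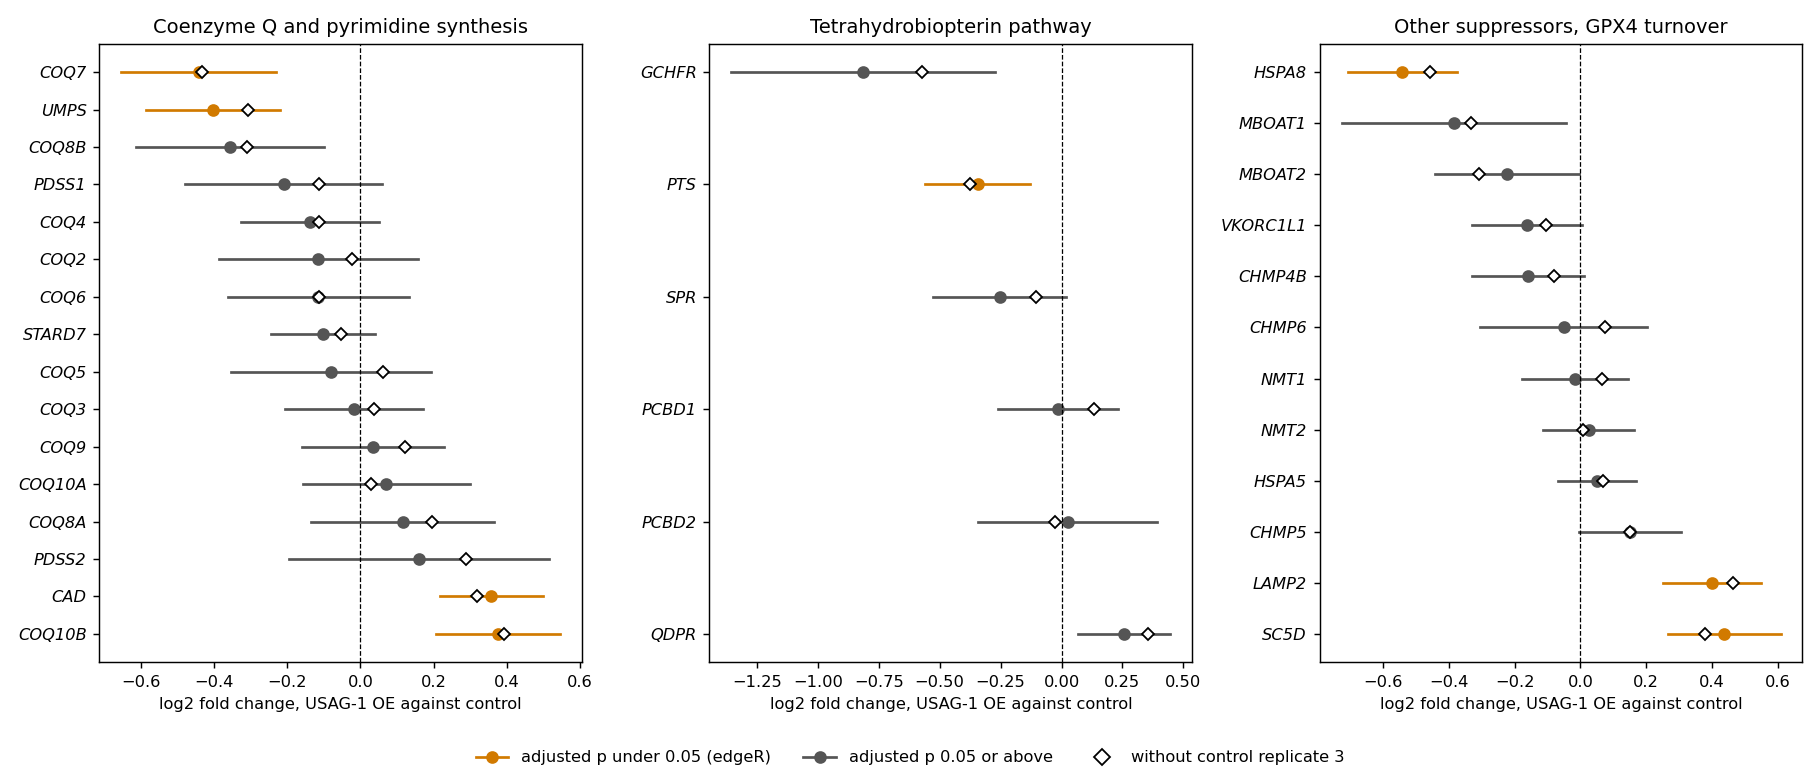
Log2 fold change, USAG-1 overexpression against control, of 16 genes of coenzyme Q and pyrimidine synthesis (left), 6 of the tetrahydrobiopterin pathway (middle) and 12 further suppressors and genes of GPX4 turnover (right). Circles with lines are edgeR's estimate and 95% interval (orange for an adjusted p under 0.05), and open diamonds the value without control replicate 3. CAD (0.36) and UMPS (-0.40) lie on opposite sides of 0.

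A last list of 12 genes took in further suppressors of ferroptosis, the myristoyltransferases and genes for the turnover of GPX4 protein. Of these, 3 passed the threshold (edgeR), beside 15.9% of all genes tested, and each did so under all 16 alternatives. SC5D, which forms the anti-ferroptotic sterol 7-dehydrocholesterol, had 33.6, 33.5 and 29.1 CPM in controls and 42.8, 43.5 and 44.0 CPM with overexpression (log2 fold change 0.44, standard error 0.07, adjusted p = 0.00704, edgeR). LAMP2, whose LAMP2A form is the lysosomal receptor of chaperone-mediated autophagy, had 259, 257 and 289 CPM in controls and 354, 367 and 340.2 CPM with overexpression (log2 fold change 0.40, standard error 0.06, adjusted p = 0.00580, edgeR). HSPA8, the cytosolic chaperone of the same route, had 2802, 2658 and 3182 CPM in controls and 1915, 2042 and 1985 CPM with overexpression (log2 fold change -0.54, standard error 0.07, adjusted p = 0.00254, edgeR). Gene counts do not separate LAMP2A from the other LAMP2 forms.

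HSPA5, the endoplasmic reticulum chaperone that the study places between USAG-1 and GPX4 protein, had 1198, 1123 and 1187 CPM in controls and 1180, 1248 and 1203 CPM with overexpression. The groups overlapped, and the log2 fold change was 0.05 (standard error 0.05, 95% interval -0.07 to 0.17, adjusted p = 0.564, edgeR). NMT1 and NMT2, which add the myristoyl group to proteins such as AIFM2, changed by -0.02 and 0.02 on the log2 scale, with intervals of -0.18 to 0.15 and -0.11 to 0.16. For MBOAT2, a lipid-remodelling suppressor of ferroptosis, the log2 fold change was -0.22 (adjusted p = 0.158, edgeR), and -0.31 without control replicate 3, past the threshold (adjusted p = 0.00616, edgeR). Its relative MBOAT1, at -0.38 (95% interval -0.73 to -0.04), did not pass the test in either fit.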

How the data were processed

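The authors deposited 1 table of whole-number counts of reads per gene for 6 libraries, not normalized, under a name that speaks of FPKM. Per the labels, RNA was poly(A)-selected, the libraries were strand-specific and read in pairs of 150 bases. The submitters' processing notes name cutadapt 1.9, FastQC and hg38; the aligner, counter and annotation are not given in the sources used here. Starting from these counts, genes were filtered with filterByExpr (18188 of 39234 kept), scaled by TMM and tested with edgeR 4.0.16 (quasi-likelihood, no replicate block, R 4.3.3) for USAG-1 overexpression against control, with Benjamini-Hochberg adjustment over all genes tested and a threshold of 0.05. The paper's methods name DESeq2, run as an alternative (1.42.0), as was limma-voom (3.58.1). Standard errors were taken as the size of the log2 fold change over the root of F, and intervals use the matching t quantile. Further alternatives were other scalings (size factors, library sizes alone or without mitochondrial genes), a replicate block, no filter or a minimum of 10 counts per library, each library left out, other thresholds and, added after the data were seen, an offset for genomic span alone or with the block. The code was tested on simulated data. The 10 genes and the 5 further lists, typed from general knowledge, were chosen with earlier results of these data known. Named genes are the 10, SOSTDC1, HSPA5, in each list those past the threshold, or those with the most counts, and the 3 most like GPX4; other genes were named after their values were seen. Transcript lengths were not analysed here, so levels are not compared between genes. Intervals and limits cover counting error and library spread only. No human sequence table was used here, so no sequence is shown. Some genes of the lists and markers are not reported here by name, although the counts over the lists include them.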

Additional observations from a re-analysis of the deposited data

How the results depend on the processing

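Of 160 values of the 10 genes under alternatives, 160 kept their direction and 8 changed their side of the threshold (SECISBP2 6, EEFSEC 1, LRP8 1). GPX4 stayed above it in all 16, with adjusted p from 0.171 to 0.636. The genomic span offsets, 2 of the 16, were added after the data were seen. Between libraries of the same replicate number, the correlations of deviations from the group mean were 0.07, -0.05 and 0.04. Not every library correlated best with its own number. With 3 libraries per group, these values cannot show whether libraries of the same number shared a culture or a batch.

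The cause of the following moves was not tested. The share called over all genes was 15.9% in the reported fit, 27.0% without control replicate 3 and 5.98% without overexpression replicate 2. For the other settings it is not given, so those counts cannot be set beside it and are not read as results about the lists. Of the 10 genes, 2 were called by DESeq2's Wald test, with at least 10 counts in every library, with a replicate block and with the genomic span offset, and 3 with adjusted p under 0.1 and with the span offset plus block; with a library left out the count was 1 to 3. Selenoprotein genes called (4) became 0 without the low count filter or with adjusted p under 0.01, 2 with the span offset plus block, and 0 to 8 with a library left out. The other selenium factors (0) became 3 with DESeq2 or adjusted p under 0.1, 1 with the replicate block, and 0 to 4 with a library left out. The coenzyme Q and pyrimidine list (5) became 1 with adjusted p under 0.01, 3 with the span offset plus block, and 1 to 5 with a library left out. The tetrahydrobiopterin list (1) became 2 with library sizes alone or at least 10 counts, 4 with DESeq2 or adjusted p under 0.1, 0 without the filter, with adjusted p under 0.01 or with the span offset, and 0 to 4 with a library left out. Of 13 genes called in the lists, 9 lost the call in at least 1 alternative. SEPSECS had the fewest counts of the 10 genes, 202 to 359 in a library, and LRP2 and SELENOP were too low to test.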
